A study of Homo sapiens with 2 samples.

Results

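The acetylcholine receptor subunits and the genes that make, load, recycle and break down acetylcholine were examined in single SH-SY5Y cells. The 9 members were chosen by name, with no measured value in the rule but with earlier results of these data known. All were found among the 33538 gene rows of the count table: CHRNA3, CHRNA5, CHRNA7, CHRNB2, CHRNB4, ACHE, CHAT, SLC18A3 and SLC5A7. SH-SY5Y is a neuroblast-like subclone of the SK-N-SH neuroblastoma line. Unsynchronized and untreated cells of 1 culture were split into 2 flasks, SplitA and SplitB, grown until nearly confluent, stained with 1 hashtag antibody per flask and sequenced together as 1 droplet 3′ library. Single cells were assigned to a flask by their hashtag counts, and those with at least 1000 genes were kept, which gave 899 cells of SplitA and 1195 of SplitB out of 2879. Both flasks had the same genotype and condition, so no conditions were compared.

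Nicotinic receptors are pentameric cation channels opened by acetylcholine. In sympathetic ganglia the main form combines alpha3 with beta4, with alpha5 as an accessory subunit, whereas alpha7 forms homomeric channels that pass calcium. A cholinergic neuron takes up choline through the transporter SLC5A7, makes acetylcholine with choline acetyltransferase (CHAT), loads it into vesicles with SLC18A3, and acetylcholinesterase (ACHE) splits it after release.

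Kept cells had 1801 to 27205 unique molecular identifiers (UMIs), with a median of 6063 in SplitA and 6346 in SplitB. The totals were 5852780 and 8066440 UMIs. Levels are given as counts per 1000000 UMIs of a flask (CPM). As 3′ tags count molecules near their polyadenylated end, a level is not divided by gene length, and capture can differ between genes. The 95% intervals are exact Poisson for levels and exact binomial for shares, and both cover counting error only. Of the 13 noradrenergic neuroblast markers, 11 were detected in 1% or more of cells in each flask, led by PHOX2A at 685 CPM in SplitA and 665 CPM in SplitB. None of the white blood cell or skeletal muscle markers reached that share, PTPRC and SOX10 had 0 UMIs, and TH, the first enzyme of catecholamine synthesis, was at only 1.54 and 1.12 CPM. As the culture holds no cell type that lacks these genes, the level that free RNA adds to a cell is not known.

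Alpha3 (CHRNA3, ENSG00000080644) was the predominant member. Its level was 169 CPM (158.3 to 179.5) in SplitA and 184.7 CPM (175.5 to 194.3) in SplitB, or 177 ± 11.4 CPM (SD, n = 2 flasks). At least 1 UMI was found in 57.5% (54.2 to 60.8) of SplitA cells and in 60.8% (58.0 to 63.6) of SplitB cells. It ranked 591 among 17881 genes with a UMI, and no other member was as high in either flask. Alpha3 provided 73.7% (71.2 to 76.0) of the 1340 UMIs of the 5 nicotinic members in SplitA and 78.2% (76.3 to 80.05) of 1905 UMIs in SplitB.

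CHRNA3 lies on the minus strand of chr15:78593052-78621295 (GRCh38, GENCODE release 44), between CHRNA5 at chr15:78565520-78595269 on the plus strand and CHRNB4 at chr15:78624111-78727754 on the minus strand. The 3 neighbours therefore form 1 cluster of subunit genes, yet CHRNA3 had far more UMIs than CHRNA5 or CHRNB4 in both flasks. The promoters of CHRNA3 and CHRNB4 (RefSeq, GRCh38.p14, minus strand, 250 bases before to 50 after the start) are shown because these adjacent genes encode the subunit pair of the ganglionic receptor while CHRNB4 was at only 9.57 CPM in SplitA and 10.2 CPM in SplitB. Capitals mark GGGCGG, the core of a GC box, on either strand (CCGCCC on the other).
CHRNA3, chr15:78620947-78621246: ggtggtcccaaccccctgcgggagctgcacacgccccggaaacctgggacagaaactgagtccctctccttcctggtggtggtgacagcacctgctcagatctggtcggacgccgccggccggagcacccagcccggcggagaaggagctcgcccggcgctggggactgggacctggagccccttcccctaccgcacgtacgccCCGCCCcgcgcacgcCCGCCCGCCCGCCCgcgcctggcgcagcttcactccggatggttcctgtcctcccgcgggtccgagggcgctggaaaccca
CHRNB4, chr15:78641161-78641460: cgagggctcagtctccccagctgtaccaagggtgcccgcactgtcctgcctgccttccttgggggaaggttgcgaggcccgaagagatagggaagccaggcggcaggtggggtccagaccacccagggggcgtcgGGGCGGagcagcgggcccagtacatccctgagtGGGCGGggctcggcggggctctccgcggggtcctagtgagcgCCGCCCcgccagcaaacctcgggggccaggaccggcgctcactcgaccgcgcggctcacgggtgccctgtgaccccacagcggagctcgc
With overlapping matches counted, the CHRNA3 window held 4 matches and 31 CpG dinucleotides, and the CHRNB4 window held 3 matches and 27 CpG dinucleotides. GGGCGG was present in 44.95% of the 35116 RefSeq promoters of this length, so the match is a description and does not separate the genes. GC content was 72.7% in both windows. The CHRNB4 window lies inside the GENCODE span of that gene and not at its upstream end, so the RefSeq start used differs from the outermost GENCODE start. Promoters were found for 8 of the 9 members.

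The remaining nicotinic members were 8 or more times rarer than CHRNA3 in both flasks. Beta2 (CHRNB2, ENSG00000160716), the usual partner of alpha4 in the brain, had 122 UMIs and 20.8 CPM (17.3 to 24.9) in SplitA, and 130 UMIs and 16.1 CPM (13.5 to 19.1) in SplitB. Alpha5 (CHRNA5, ENSG00000169684) was at 16.1 CPM (12.98 to 19.65) in SplitA and 12.3 CPM (9.98 to 14.9) in SplitB. Alpha7 (CHRNA7, ENSG00000175344) was at 13.8 CPM (10.99 to 17.2) in SplitA and 12.9 CPM (10.5 to 15.6) in SplitB. These 3 genes formed a middle group in which the intervals of neighbours overlapped in each flask. Beta4 (CHRNB4, ENSG00000117971) had 9.57 CPM (7.23 to 12.4) in SplitA and 10.2 CPM (8.09 to 12.6) in SplitB, and its intervals overlapped those of alpha7 in both flasks and those of alpha5 in SplitB only. In cells, the shares with a UMI were 12.35% and 9.62% for CHRNB2, 9.57% and 7.20% for CHRNA5, 8.68% and 7.70% for CHRNA7, and 6.01% and 6.36% for CHRNB4, in SplitA and SplitB respectively.

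Some of these counts carry an uncertainty of assignment, since the sources used here do not say whether counting used strand. The 3′ ends of CHRNA3 and CHRNA5 overlap on opposite strands over 2218 bases, of which 198 are exonic in both. CHRNA5 also shares 832 exon bases with an antisense lncRNA (ENSG00000261762) that had 358 UMIs over all cells, more than the 245 UMIs of CHRNA5. CHRNA7 (chr15:31923438-32173018, plus strand) has a partial copy, CHRFAM7A, which holds 42.4% of the 50-base words of its canonical transcript but 0% of those in its last 1000 bases, the part a 3′ assay mainly reads. In the other direction, CHRNA7 transcripts hold 94.7% of the words in the last 1000 bases of CHRFAM7A. Only annotated transcripts were compared, and not the genome. Whether UMIs counted for CHRNA7 came from the copy was not tested.

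SLC18A3 (ENSG00000187714), the vesicular acetylcholine transporter, was the second most abundant member. It had 264 UMIs and 45.1 CPM (39.8 to 50.9) in SplitA, and 342 UMIs and 42.4 CPM (38.02 to 47.1) in SplitB, with a UMI in 23.25% and 22.4% of cells. The level was 43.75 ± 1.92 CPM (SD, n = 2 flasks), and its intervals did not overlap those of CHRNA3 above it or of CHRNB2 below it. CHAT (ENSG00000070748), which encodes the enzyme of acetylcholine synthesis, had 0 UMIs in SplitA and 1 UMI in SplitB. SLC5A7 (ENSG00000115665), the high-affinity choline transporter, had 0 UMIs in both flasks. A count of 0 allows up to 3 counts, that is 0.513 CPM or 0.334% of cells in SplitA and 0.372 CPM or 0.251% of cells in SplitB. The vesicular transporter was thus detected without its 2 companions of the cholinergic set at this depth.

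This contrast is seen inside 1 locus. SLC18A3 (chr10:49610310-49612720, plus strand) is a gene of 1 exon within the span of CHAT (chr10:49609095-49667942, plus strand), and it shares 0 exon bases with CHAT. In the kept cells the nested gene had 606 UMIs and the host gene 1. The 2 promoters nearest to each other are given to show how close the starts lie, with GGGCGG in capitals as before. Capitals also mark CAGATG, an E box motif, which reads as CATCTG when it lies on the opposite strand.
CHAT, chr10:49608845-49609144: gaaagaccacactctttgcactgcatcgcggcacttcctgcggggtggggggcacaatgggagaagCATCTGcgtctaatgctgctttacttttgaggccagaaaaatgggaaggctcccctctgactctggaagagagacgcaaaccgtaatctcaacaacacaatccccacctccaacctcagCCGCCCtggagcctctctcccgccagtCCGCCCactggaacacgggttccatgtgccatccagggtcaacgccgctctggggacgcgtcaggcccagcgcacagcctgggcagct
SLC18A3, chr10:49610060-49610359: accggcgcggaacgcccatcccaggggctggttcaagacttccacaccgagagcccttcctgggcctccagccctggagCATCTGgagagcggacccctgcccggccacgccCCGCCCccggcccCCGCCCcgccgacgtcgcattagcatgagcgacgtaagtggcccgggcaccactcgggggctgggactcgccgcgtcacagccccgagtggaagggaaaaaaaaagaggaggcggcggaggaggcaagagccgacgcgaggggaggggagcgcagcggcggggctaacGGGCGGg
The CHAT window held 2 GGGCGG matches, 1 CAGATG match and 15 CpG dinucleotides, and the SLC18A3 window 3, 1 and 33. CAGATG was present in 14.7% of RefSeq promoters, and the zinc finger motif AGATAA, which 10.3% of promoters hold, had no match in any window of a member. CHAT has further RefSeq starts inside the gene that are not shown.

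Acetylcholinesterase (ACHE, ENSG00000087085; chr7:100889994-100896974, minus strand) was rare and was the only detected member with a ratio of at least 1.5 between flasks. It had 16 UMIs and 2.73 CPM (1.56 to 4.44) in SplitA against 42 UMIs and 5.21 CPM (3.75 to 7.04) in SplitB, a ratio of 1.90 (1.05 to 3.63). Of 10516 genes with at least 50 UMIs, 1.82% were at least 1.5-fold higher in SplitB and 1.26% in SplitA, a limit set after the values were seen. ACHE, with 58 UMIs over both flasks, lies near that minimum of 50, and the shares were not matched to its level. With 1 flask against 1 flask the difference has no test. The ratios of SplitB to SplitA ranged from 0.764 for CHRNA5 to 1.09 for CHRNA3 among the other 6 detected members, and those of CHRNA3 (1.01 to 1.19) and CHRNB2 (0.599 to 0.998) had intervals of counting error that left out 1.

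**Figure D1:**
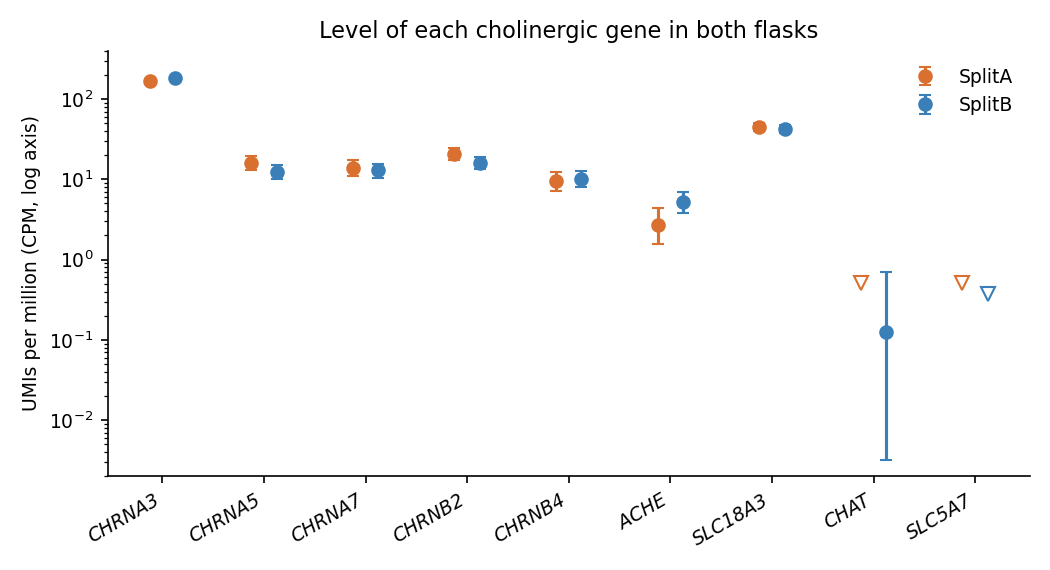
Level in CPM (log axis) of the 9 cholinergic genes in SplitA (orange) and SplitB (blue), with exact Poisson 95% intervals as bars; open triangles mark the level that a count of 0 allows. CHRNA3 stands at 169 and 184.7 CPM, SLC18A3 follows at 45.1 and 42.4 CPM, and CHAT and SLC5A7 are at or under the level that 0 UMIs allow.

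Shares of cells depend on depth, so each cell was also thinned to 2000 UMIs, which left out 1 cell of SplitA and 2 of SplitB. CHRNA3 was then found in 27.5% (24.6 to 30.55) of SplitA cells and 31.35% (28.7 to 34.1) of SplitB cells, in place of 57.5% and 60.8%. SLC18A3 was found in 7.57% and 7.88%. The 4 other nicotinic members fell to between 1.34% and 4.12%, and ACHE to 0.891% and 1.09%. CHRNA3 and SLC18A3 remained first and second in both flasks, and 7 of 9 members were detected in 1% or more of cells in each flask before thinning, and 6 after it. In the deepest of 3 equal bins of cells, with a median of 8615 UMIs in SplitA and 9024 in SplitB, CHRNA3 was found in 66.2% and 67.6%, so a cell without a CHRNA3 UMI cannot be read as a cell without the transcript.

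**Figure D2:**
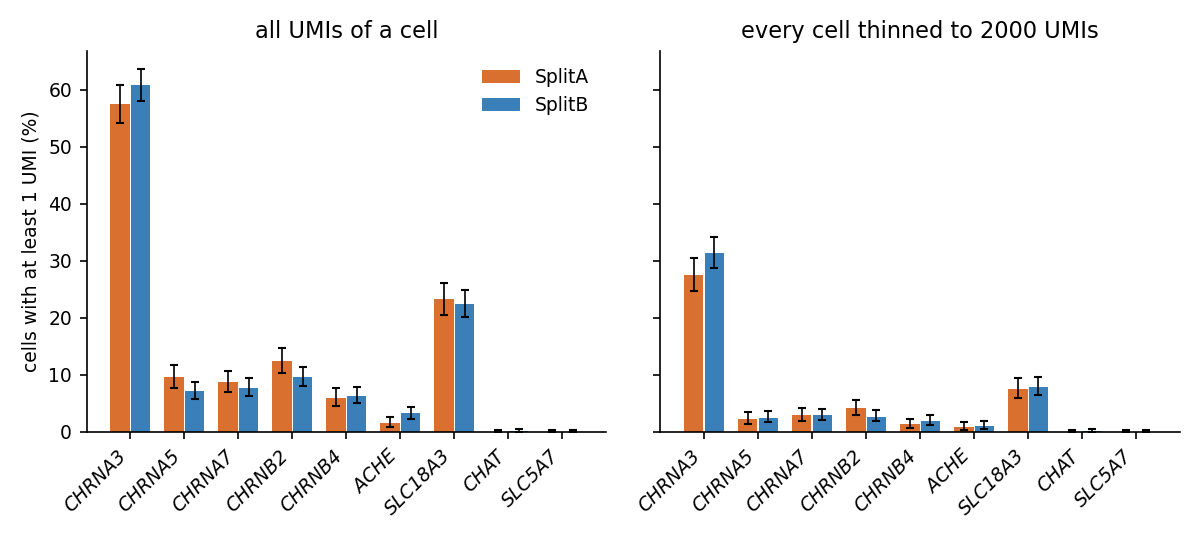
Share of cells (%) with at least 1 UMI of each gene in SplitA (orange) and SplitB (blue), with exact binomial 95% intervals as bars, on all UMIs (left) and with each cell thinned to 2000 UMIs (right). Thinning lowers CHRNA3 from 57.5% and 60.8% to 27.5% and 31.35%, and CHRNA3 stays the gene found in most cells.

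The CHRNA3 counts fell off gradually from cell to cell. In SplitA, 42.5% of cells had 0 CHRNA3 UMIs, 30.8% had 1, 14.7% had 2, and the highest cell had 11. In SplitB, 39.2% had 0, 28.8% had 1, 16.65% had 2, and the highest cell had 15. With 1 proportion for all cells and the UMI total of each cell, Poisson counting would place a UMI in 63.5% of SplitA cells and 67.6% of SplitB cells, more than the 57.5% and 60.8% found. The variance of CHRNA3 relative to that counting noise was 1.38 in SplitA and 1.47 in SplitB. These values were above those of 93.5% of 7769 genes and 95.2% of 8946 genes with at least 50 UMIs in the flask, where the median over these genes was 1.06 in both flasks. The ratio also depends on a gene's level, which was not matched here.

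The ratio was 1.28 and 1.21 for SLC18A3. For CHRNB2 (0.997 and 1.06) and CHRNB4 (0.982 and 1.11) it was near 1, which at counts this low does not show that cells are alike. For ACHE, with 16 and 42 UMIs, it was 1.44 and 1.315. CHRNA5 (1.14 and 1.64) and CHRNA7 (0.985 and 1.26) differed between flasks in this ratio, which was not tested.

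**Figure D3:**
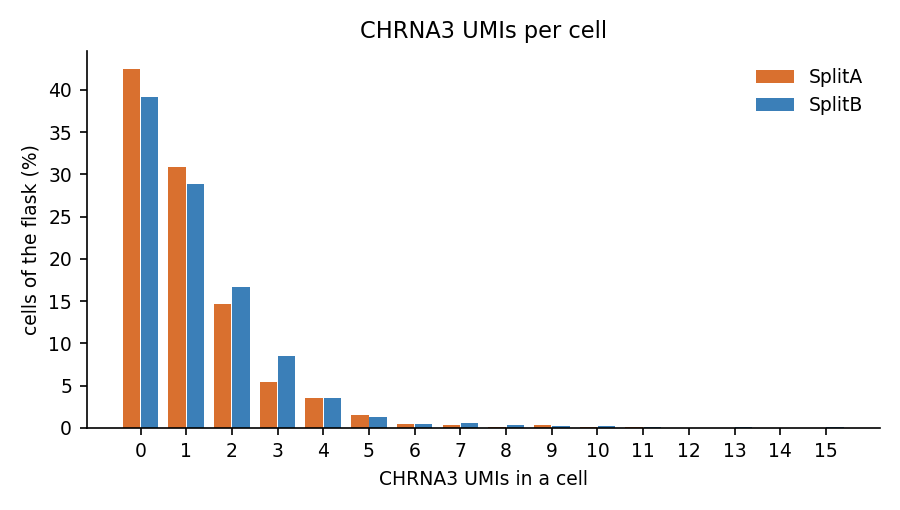
Share of cells (%) by the number of CHRNA3 UMIs in the cell, for SplitA (orange) and SplitB (blue). Most cells have 0, 1 or 2 UMIs in both flasks, and the highest cells have 11 and 15.

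Genes whose log-normalized expression most resembled that of a member across cells were listed by the lower of the Pearson r of both flasks, among 7783 genes, as a description over 899 and 1195 cells that share library and depth. The nearest to CHRNA3 were DBH, which converts dopamine to noradrenaline (r = 0.202 in SplitA and 0.218 in SplitB), the membrane protein gene DLK1 (0.203 and 0.191), and CHGA, a protein of secretory granules (0.209 and 0.1895). For CHRNA7, CHRNB2, CHRNB4 and SLC18A3, every r was at most 0.153. Correlations this weak in sparse counts are no finding, and ranks among them can depend on few cells.

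Whether subunits that can form 1 receptor were seen in the same cell was examined next. CHRNA3 and at least 1 of the beta subunits CHRNB2 and CHRNB4 were found together in 106 SplitA cells (11.8%, 9.76 to 14.1) and 119 SplitB cells (9.96%, 8.32 to 11.8). CHRNA3 with CHRNB2 was seen in 81 and 75 cells, and CHRNA3 with CHRNB4 in 33 and 49 cells. CHRNA3 without a UMI of either beta subunit was commoner, in 45.7% and 50.9% of cells. A beta subunit without a CHRNA3 UMI was found in 5.01% and 5.36%. As the beta subunits were rare and shares depend on depth, a cell without their UMIs cannot be read as lacking the transcripts. The combination of the ganglionic receptor with its accessory subunit, CHRNA3 with CHRNA5 and CHRNB4, was seen in 2 and 4 cells.

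These counts were set against the number that the shares of both genes give when multiplied within each of 10 equal bins of cells by UMI total. For CHRNA3 and CHRNB4 the ratio of cells found to that number was 1.01 (0.693 to 1.41) in SplitA and 1.02 (0.753 to 1.34) in SplitB. For CHRNA3 and CHRNB2 it was 1.19 (0.946 to 1.48) and 0.991 (0.780 to 1.24). For CHRNA3 and SLC18A3, seen together in 127 and 173 cells, it was 1.02 (0.850 to 1.21) and 1.01 (0.867 to 1.18). All of these intervals included 1. They are Poisson intervals of the joint count alone and take no account of the shares being fixed in the same cells. They are therefore wide for common genes and can hide a small excess or lack. An interval that includes 1 does not show that 2 genes were independent. Of 21 pairs of the 7 detected members, 7 had a ratio above 1 in both flasks, 2 had one below 1 in both, and 12 lay on both sides. No pair had an interval that left out 1 in both flasks. CHRNA5 with CHRNA7 had such an interval in SplitA alone, at 15 cells and a ratio of 1.82 (1.02 to 3.002), against 5 cells and 0.725 (0.235 to 1.69) in SplitB.

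**Figure D4:**
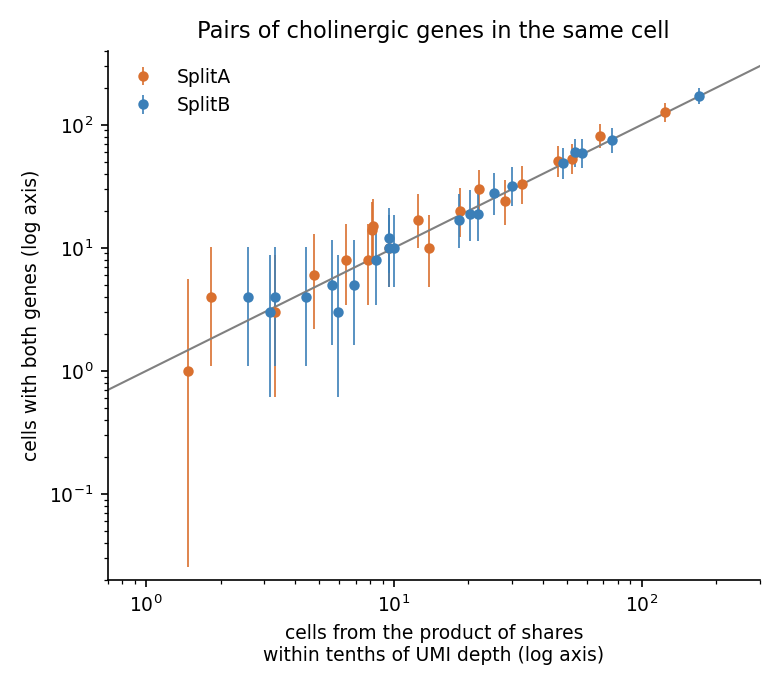
Cells with a UMI of both genes (log axis) against the number given by the product of their shares within 10 bins of UMI total (log axis), for the 21 pairs of 7 detected genes in SplitA (orange) and SplitB (blue); bars are exact Poisson 95% intervals, the line marks equality, and pairs with 0 cells are not drawn. Pairs seen in few cells scatter on both sides of the line with wide intervals, and CHRNA3 with SLC18A3, at 127 and 173 cells, lies near it.

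At least 1 of the 9 members was detected in most cells. None was found in 25.5% (22.65 to 28.45) of SplitA cells and 23.5% (21.1 to 26.0) of SplitB cells. One was found in 40.7% and 43.35%, and 2 in 24.9% and 26.5%. Cells with 3 members made up 7.79% and 5.36%.

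The cultures were not synchronized, and the cell cycle was the one axis along which the design allowed a test. Cells were scored for phase with the cell cycle gene list of the study, which holds 0 of the 9 members, and their UMIs were summed per flask and phase. SplitA had 420 cells in G1, 292 in S and 187 in G2M, and SplitB had 563, 365 and 267. Phases are ranges of a score, and in 371 cells the higher score lay within 0.05 of 0. The p-values rest on 2 flasks of 1 culture. With flask as block, they measure how far the phase differences vary between these flasks, with counting noise, and not the spread between cultures.

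CHRNA3 was highest in G1 and lower in S and G2M in both flasks. Its level in SplitA was 190 CPM in G1 (173.8 to 207.3), 156 CPM in S (138.5 to 175.2) and 144 CPM in G2M (124.1 to 165.3). In SplitB it was 208.5 CPM in G1 (194.2 to 223.6), 173 CPM in S (156.9 to 190.7) and 151.5 CPM in G2M (134.5 to 170.2). In each flask the G1 interval lay above that of G2M. Cells in G2M were deeper than those in G1, with medians of 7083 against 5824 UMIs in SplitA and 6960 against 6163 in SplitB. From the shallowest to the deepest of 3 equal bins of cells, CHRNA3 was at 176, 153.5 and 175.5 CPM in SplitA. In SplitB it was at 224, 167 and 180 CPM. How much of the fall goes with depth was not tested. On the log2 scale CHRNA3 fell by 0.56 (SE 0.08) in G2M against G1, with an adjusted p of 1.24e-08, and fell by 0.35 (SE 0.07) in S against G1, with an adjusted p of 0.000116 (edgeR quasi-likelihood test, flask as block, Benjamini-Hochberg over 10389 genes). With DESeq2 the fall in S did not pass (adjusted p = 0.155), while that in G2M did (adjusted p = 0.00142). CHRNA3 was the only 1 of 6 members tested that was called in either comparison, against a background of 29.5% of genes called in G2M and 20.8% in S. A count of 1 of 6 lies near or below these shares and is not a result about the members as a group.

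The other 5 members tested did not pass the threshold in either comparison. SLC18A3 was at 44.7, 40.8 and 51.8 CPM in G1, S and G2M of SplitA, and at 39.1, 41.0 and 50.9 CPM in SplitB. Its log2 difference in G2M against G1 was 0.18 (SE 0.14, adjusted p = 0.378 by edgeR), and the intervals of all 3 phases overlapped within each flask. CHRNA7 was at 13.1, 13.05 and 16.3 CPM in SplitA and at 16.6, 12.1 and 6.36 CPM in SplitB, so the G2M value lay above that of G1 in SplitA and below it in SplitB, and the pooled log2 value of -0.65 did not pass (SE 0.29, adjusted p = 0.0814 by edgeR). CHRNB2, CHRNB4 and CHRNA5 had adjusted p-values of 0.965, 0.36 and 0.976 in G2M and of 0.552, 0.76 and 0.467 in S by edgeR. ACHE, CHAT and SLC5A7 did not pass the filter on low counts and were not tested in this fit. With no filter other than 1 UMI, ACHE had a log2 difference of -1.46 in G2M (SE 0.54, adjusted p = 0.0442 by edgeR) and -0.67 in S (adjusted p = 0.451). ACHE was at 7.92 CPM (5.34 to 11.3) in G1 and 2.12 CPM (0.577 to 5.43) in G2M of SplitB, and at 2.25 and 2.22 CPM in SplitA.

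**Figure D5:**
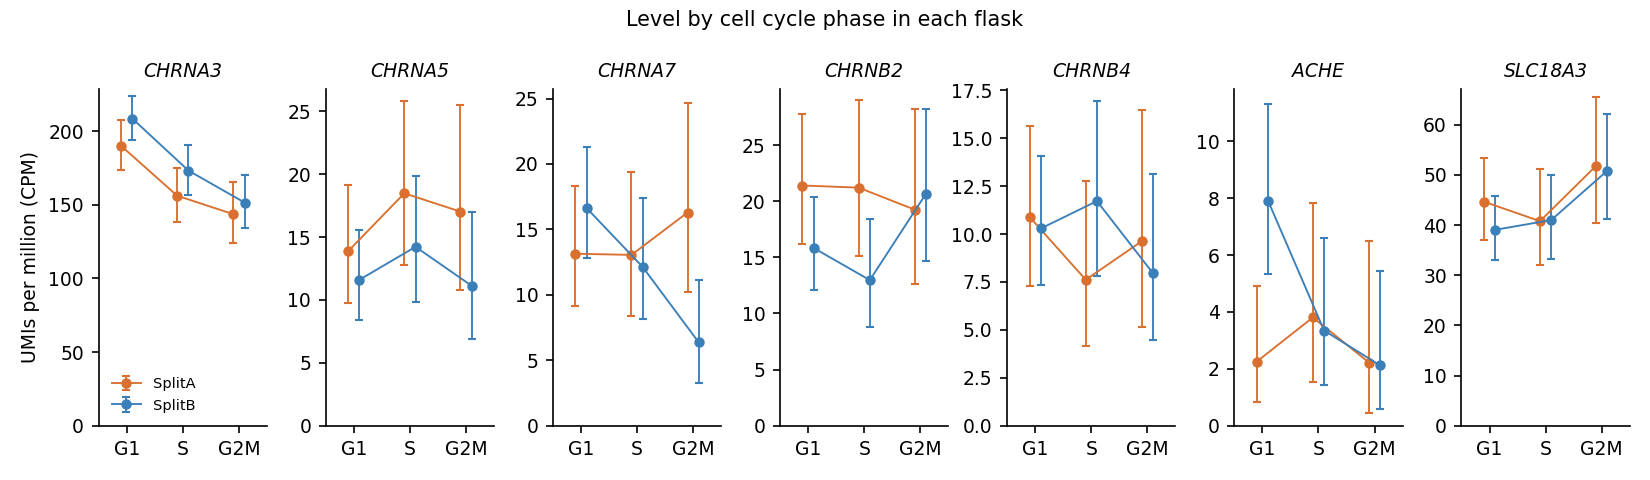
Level in CPM of 7 cholinergic genes in cells scored as G1, S and G2M, for SplitA (orange) and SplitB (blue), with exact Poisson 95% intervals as bars and 1 vertical axis per gene, from 0. CHRNA3 declines from 190 to 144 CPM in SplitA and from 208.5 to 151.5 CPM in SplitB, and the intervals of the other genes mostly overlap between phases.

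Genes that act with the members were described from lists chosen by role. Of 11 nicotinic subunits outside the members, 1 was detected in 1% or more of cells in each flask, CHRNB1, the beta1 subunit of the muscle receptor, at 23.2 and 24.05 CPM, and 4 (CHRNA1, CHRNA4, CHRNB3 and CHRNG) had 0 UMIs. Beta1 was therefore as abundant as CHRNB2 or more, without its muscle partner alpha1. CHRNB1 fell by 1.13 (log2, SE 0.21, adjusted p = 9.1e-06) in G2M and fell by 0.90 (SE 0.19, adjusted p = 9.37e-05) in S against G1 by edgeR. The call in S was lost with DESeq2 (adjusted p = 0.215), and after thinning both were lost (0.134 in G2M and 0.0957 in S). Of 5 muscarinic receptors, which signal through G proteins, 3 reached 1% of cells. CHRM3 was at 58.8 and 48.1 CPM, CHRM2 at 10.1 and 11.2 CPM and CHRM1 at 2.73 and 2.48 CPM. CHRM2 rose by 0.73 (log2, SE 0.28, adjusted p = 0.0429 by edgeR) in G2M. This call was lost with DESeq2 (adjusted p = 0.543), with no filter other than 1 UMI (0.0635), with an updated version of the phase gene list (0.0949) and with cells limited to a mitochondrial share under 15% (0.109). CHRM3 did not pass in either comparison.

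Of 18 genes of receptor assembly and modulation, 7 reached 1% of cells. LY6E, a member of the Ly6 family, was highest at 191.5 and 185.5 CPM, and RIC3, a chaperone of nicotinic receptor assembly, was at 50.1 and 48.7 CPM. Of 5 tested by edgeR, 0 rose and 2 fell in G2M, RIC3 by 0.40 (log2, adjusted p = 0.0224) and NRN1 by 1.60 (adjusted p = 5.18e-06). In S, 1 rose, LY6E by 0.21 (adjusted p = 0.0291), and the same 2 fell, RIC3 by 0.44 (adjusted p = 0.00902) and NRN1 by 1.69 (adjusted p = 5.55e-07). Over all genes, 14.5% were lower in G2M and 9.9% in S, and with 5 genes tested the counts say nothing of the list. With DESeq2 the calls of RIC3 (adjusted p = 0.4165 in G2M and 0.562 in S), LY6E (0.647) and NRN1 in G2M (0.0526) were lost, and that of NRN1 in S remained (0.0416). RIC3 also lost both calls after thinning (0.0957 and 0.349) and with a minimum of 2000 genes (0.62 and 0.834), and LY6E lost its call after thinning (0.7435) and with the updated phase gene list (0.101). Of the genes of acetylcholine breakdown, butyrylcholinesterase (BCHE) was at 17.6 and 18.35 CPM, above ACHE in both flasks with intervals that did not overlap, and PRIMA1, the membrane anchor of ACHE, was at 9.23 and 8.06 CPM. Neither passed the test between phases.

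Genes of choline supply and acetyl-CoA were widely detected, 18 of 24 in 1% or more of cells in each flask, although SLC5A7 itself was not found. PLD3 was at 108 and 121 CPM, against 0.683 and 0.620 CPM for PLD1 and 7.18 and 6.57 CPM for PLD2. The RNA level of PLD3 is not a measure of choline release. The citrate lyase ACLY was at 69.0 and 66.7 CPM and the citrate carrier SLC25A1 at 69.0 and 66.6 CPM. PEMT, which makes phosphatidylcholine, was at 43.7 and 44.1 CPM. Of 16 tested, 2 rose and 3 fell in G2M, and 2 rose and 2 fell in S, near the shares over all genes, of which 29.5% and 20.8% were called. With DESeq2, 1 of the 13 with an adjusted p fell and 0 rose in G2M, and 0 of 14 were called in S. Over the 17881 genes of that fit, 889 were called in G2M and 557 in S. Among regulators of cholinergic sympathetic and motor neurons, 6 of 16 reached 1% of cells, and 5 (GBX1, HMX3, MNX1, SST and TBX20) had 0 UMIs. LHX3, LHX4 and LHX8 had 1 UMI each over both flasks. ISL1, a LIM homeodomain factor, was at 181 and 180 CPM, the CNTF receptor gene CNTFR at 68.2 and 65.1 CPM, IL6ST at 16.9 and 17.5 CPM and TLX3 at 15.04 and 14.1 CPM. Of 5 tested, 1 fell in both comparisons, ISL1, by 0.25 (log2, adjusted p = 0.00867) in G2M and by 0.38 (adjusted p = 3.3e-05) in S by edgeR, which as 1 of 5 is not above the 29.5% and 20.8% of all genes called. These calls were lost with DESeq2 (adjusted p = 0.302 and 0.0865) and after thinning (0.626 and 0.679), and that in G2M also with a minimum of 2000 genes (0.1585).

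Noradrenergic neuroblast genes were high beside CHRNA3. GATA2 was at 469.5 and 445 CPM, DBH at 335 and 325 CPM and HAND2 at 318 and 318 CPM. Of 10 tested by edgeR, 7 fell and 1 rose in G2M, against backgrounds of 14.5% lower and 15% higher over all genes, and 9 fell and 1 rose in S, against 9.9% lower and 10.9% higher. With DESeq2, 3 of 10 fell and 1 rose in G2M, and 4 fell and 0 rose in S. Over the 17881 genes of that fit, 458 were lower and 431 higher in G2M, and 214 lower and 343 higher in S. After thinning, 4 of 10 fell and 1 rose in G2M, and 4 fell and 0 rose in S. Over the 6253 genes of that fit, 556 were lower and 547 higher in G2M, and 398 lower and 420 higher in S. ISL1 belongs to this list as well as to the cholinergic regulators, so the counts of both lists share a gene. DBH fell by 0.97 (log2, SE 0.06, adjusted p = 2.84e-23 by edgeR) and PHOX2A by 0.60 (SE 0.05, adjusted p = 2.7e-19) in G2M. The median log2 value of the list was -0.23 in G2M and -0.43 in S, where that over all genes tested was 0.03 and -0.01. CHRNA3 and DBH were found together in 414 SplitA cells and 568 SplitB cells, or 1.06 (0.956 to 1.16) and 1.05 (0.968 to 1.14) times the product of shares. These are the same wide Poisson intervals, which can hide a small excess.

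Of 10 mesenchymal neuroblastoma genes, 5 reached 1% of cells. TWIST1 was at 166 and 159.9 CPM, in 59.1% and 58.1% of cells, and VIM at 111 and 140 CPM, in 36.5% and 40.75% of cells, while PRRX1 had 0 UMIs. Of 6 fibroblast genes, 4 reached 1%, led by PDGFRA at 12.6 and 14.75 CPM, and COL1A2 and DCN had 0 UMIs. Of 6 Schwann cell genes, only S100B did, at 4.44 and 3.47 CPM.

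Singlets with fewer than 1000 genes, 280 in SplitA and 410 in SplitB, were left out but read for the members. Their median mitochondrial share was 32.6% and 36.7%, against 8.64% and 8.82% in kept cells. CHRNA3 was at 297 CPM (246.5 to 353.9) in those of SplitA and 276 CPM (234.8 to 322.8) in those of SplitB, 1.76 (1.45 to 2.12) and 1.495 (1.26 to 1.76) times its level in kept cells. CHRNA5 was at 53.05 CPM with 22 UMIs and 43.7 CPM with 25 UMIs, 3.30 (1.98 to 5.30) and 3.56 (2.20 to 5.57) times its level in kept cells. SLC18A3 was at 57.9 and 45.45 CPM, 1.28 (0.808 to 1.95) and 1.07 (0.690 to 1.60) times. On these totals, which include mitochondrial UMIs, the intervals of the 2 neighbouring alpha subunit genes lay above 1 in both flasks, and those of SLC18A3 included 1. The share of all genes that were higher in these cells was not computed, so the rise cannot be called particular to the 2 genes. The uncertainty of assignment of CHRNA5 UMIs applies here too. CHRNB2 had 1 UMI in these cells of SplitA, 0.116 (0.0029 to 0.657) times its level in kept cells, and 9 UMIs in those of SplitB, 0.976 (0.437 to 1.91) times. CHRNA7, at 0.523 and 0.949 times, and CHRNB4, at 1.26 and 0.516 times, had intervals that included 1. With mitochondrial UMIs left out of the totals, CHRNA3 was at 435 and 427 CPM in these cells against 186 and 204 CPM in kept cells, CHRNA5 at 77.9 and 67.5 CPM against 17.7 and 13.55 CPM, and SLC18A3 at 85.0 and 70.2 CPM against 49.7 and 46.8 CPM. ACHE had 8 UMIs in these cells of SplitA, 7.06 (2.615 to 17.5) times its level in kept cells, and 4 UMIs in those of SplitB, 1.34 (0.35 to 3.70) times. Among 73 multiplets, cells that neither hashtag assigns to a flask, with at least 1000 genes, CHRNA3 was at 237 CPM (199.0 to 280.3), SLC18A3 at 36.3 CPM (22.5 to 55.55), and CHAT and SLC5A7 had 0 UMIs.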

How the data were processed

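Untreated SH-SY5Y cells of 2 flasks were tagged with hashtag antibodies, pooled and sequenced as 1 mRNA and 1 hashtag library. The labels name only the hashtag, and the flask names are those of the study. Reads were mapped to GRCh38 with STAR 2.7 and counted with Cell Ranger 4.0.0, according to the methods and the submitters' processing notes. The authors deposited UMI counts without normalization for 33538 gene identifiers and counts of 2 hashtags in 2879 cells. The annotation release is not given in the sources used here. Depth was 1801 to 27205 UMIs per kept cell.

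A cell was a singlet when 1 hashtag was at least 3 times the other and the other was at most 185 counts. Singlets with at least 1000 genes were kept, with no limit on mitochondrial share, so 70 and 104 cells with a share of 15% or more remained. Hashtags remove multiplets across flasks but not those of 1 flask, and no other doublet caller was run. Where no UMI was found, a floor of 3 counts was used.

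Phases were scored with Seurat 5.3.0 in R 4.3.3 on log-normalized counts (scale factor of 10000). UMIs summed per flask and phase (6 sums) were tested with edgeR 4.0.16 (TMM, filterByExpr, quasi-likelihood, flask as block because the phases of a flask come from that flask, threshold 0.05), in a script tested on simulated data. SEs were taken from the log2 fold change and the F statistic. DESeq2 1.42.0 was an alternative. Others concerned the hashtag limit, the gene minimum, the mitochondrial share, the filters of the study's code, multiplets, thinning, the phase gene list and leaving out each flask. The remaining steps used numpy 2.4.6, pandas 2.3.3, scipy 1.17.1 and matplotlib 3.10.9 in Python 3.11.15. Gene models are those of GENCODE release 44, and promoters those of RefSeq.

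Named genes were the 9 members, of each of 12 lists the 4 highest genes detected in 1% or more of cells in each flask, and for each member in at least 5% of cells the 3 genes most like it. Some genes that this rule or a small count would name are not reported here. Other genes were named after their values were seen, where a count was small or a defining marker was absent, or beside a named gene of the same family. Members and lists were chosen with earlier results of these data known.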

Additional observations from a re-analysis of the deposited data

How the results depend on the processing

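Depth limits the rare members most: ACHE, CHAT and SLC5A7 did not pass the low-count filter of the phase test, and shares of cells rise with UMIs per cell. The fall of CHRNA3 in G2M passed the threshold in all 7 alternatives that give a test, with adjusted p from 8.12e-11 to 0.00201, and its fall in S passed in 6 of 7. Of the 9 members, 7 were detected in 1% or more of cells in each flask, and 6 after thinning. The share of cells with CHRNA3 and a beta subunit, 10.7% over both flasks, was 8.94% with a minimum of 500 genes, 16.8% with 2000 genes and 1.48% after thinning, and 9.96% to 11.8% when either flask was left out. Genes called in G2M numbered 3065 of 10389 tested. They numbered 889 of 17881 with DESeq2, 1103 of 6253 after thinning and 1522 of 8662 with a minimum of 2000 genes. In S they numbered 2158, and 557, 818 and 777 in the same order and of the same numbers tested. With no filter other than 1 UMI, 2 of 8 members were called in G2M, against 2866 of 17881 genes (ACHE being added, at an adjusted p of 0.0442 by edgeR). In S, 0 of 8 members were called with DESeq2. After thinning, 2 of 5 members were called in S, against 818 of 6253 genes (CHRNA5 being added, at an adjusted p of 0.0411 by edgeR). Counts this small say nothing of the members as a group. Without the flask as replicate block, 3067 and 2159 of 10389 genes were called. The same number of members, 1 of 6, was called, so the pairing changed no call of a member. Leaving out a flask leaves no spread, so those fits give fold changes and no count.

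Members that were not called changed sign with some settings, by log2 values near 0 or with wide error. CHRNA5 was 1.08 in G2M after thinning, 0.024 with a minimum of 2000 genes, 0.051 with a mitochondrial share under 15% and -0.19 to 0.13 when a flask was left out, and in S it was -0.20 with 2000 genes and -0.024 with the mitochondrial limit. CHRNA7 was -1.42 to 0.15 in G2M when a flask was left out and 0.53 in S after thinning. CHRNB2 in G2M was -0.0019 with DESeq2, -0.42 with 2000 genes, -0.038 with the mitochondrial limit and -0.29 to 0.24 when a flask was left out. CHRNB4 was 0.15 in G2M and 0.053 in S with 2000 genes, and -0.54 to 0.12 in S when a flask was left out. SLC18A3 in S was 0.066 after thinning, 0.31 with 2000 genes and -0.21 to 0.010 when a flask was left out. The cause was not tested. With the settings that leave out a flask and SLC5A7 set aside, 22 of 104 alternative levels and shares of single members moved by more than the SD between flasks.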
